A study of Rattus norvegicus with 10 samples.

Results

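The change in transcript levels between 8 h and 24 h of follicle-stimulating hormone (FSH) was measured in cultured rat Sertoli cells, the somatic cells that nurse the germ cells in the seminiferous tubule. The comparison sets the 2 arrays of cells given FSH for 24 h against the 2 arrays of cells given FSH for 8 h, replicate 1 against replicate 1 and replicate 2 against replicate 2. These are 4 of the 10 arrays of the series, and no untreated array enters the test. Each array reports 8740 probe sets (short oligonucleotide sets, each aimed at 1 transcript) besides its controls, and 4426 of these were bright enough to test. They cover 2721 named genes.

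The cells came from 20-day-old rats and were kept in culture. Total RNA was taken from cultures with no hormone at time 0 and from cultures given FSH for 2, 4, 8 or 24 h, with 2 arrays at each of the 5 times. The labels name no strain, no FSH dose and no pooling, and they do not say whether the replicates are separate cultures, so a p-value reflects no more than how far these samples differ, and that spread can be technical. No untreated culture is labelled as later than 0 h, so a change between 8 h and 24 h of FSH cannot be told apart from a change with time in culture. In RNA from a whole culture, fewer cells of a type and less RNA per cell cannot be told apart either.

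FSH binds a receptor, Fshr, that in the testis is found on Sertoli cells. The receptor acts through cAMP and protein kinase A, which phosphorylates the transcription factor CREB on cAMP response elements in promoters. The response is known to limit itself: the Crem gene gives rise to the repressor ICER, phosphodiesterases degrade cAMP and the receptor is desensitised. Among the known products of FSH-treated Sertoli cells are inhibin, plasminogen activator and lactate.

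The Sertoli cell genes Clu, Shbg, Amh and Fshr were read on all 4 arrays. Of the 28 listed Sertoli cell genes on the array, 22 were tested. Gata1, Gdnf, Inhbb, Kitlg, Krt18 and Nr5a1 were not bright enough to test. Clusterin (Clu), a major secreted protein of these cells, lay at a scaled intensity of 12025 and 7636 at 8 h and 9373 and 6845 at 24 h. The carrier of androgens Shbg lay at 797 and 884, then 590 and 622. Anti-Mullerian hormone (Amh) lay at 303 and 153, then 194 and 168. Fshr itself lay at 82.2 and 57.3, then 111 and 63.1. None of these 4 genes was called: the log2 changes from 8 h to 24 h were -0.26 for Clu, -0.47 for Shbg, -0.25 for Amh and 0.29 for Fshr. Without the first 8 h array the change of Amh had the opposite sign (0.088). Replicates correlated across the tested probe sets at r = 0.902 at 8 h and 0.906 at 24 h. The ratio of the 3' to the 5' probe set of actin, a measure of RNA integrity, was 0.928 and 1.52 at 8 h and 1.01 and 1.73 at 24 h, and so differed more between replicate numbers than between times.

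Between 8 h and 24 h, 112 probe sets (78 named genes) were lower and 42 (34 named genes) were higher at 24 h in limma's test with the replicate number as a block, at an adjusted p under 0.05. These are 2.53% and 0.949% of all probe sets tested, and 3.48% for both directions. Counted by named gene, the shares are 2.87% lower and 1.25% higher. The falls had a median of -1.65 on the log2 scale and ranged from -0.93 to -4.88, and the rises had a median of 1.49 and ranged from 1.08 to 3.96. Over all tested probe sets the median change was 0.03. Of the falls, 37 were larger than 2 log2 units, and of the rises, 9.

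All 154 called probe sets moved the same way in both replicate pairs. The median fall was -1.86 in pair 1 and -1.55 in pair 2, and the median rise was 1.66 and 1.35. Both 24 h arrays lay below both 8 h arrays in 107 of the 112 falls, against 17.7% of all tested probe sets, and above them in 38 of the 42 rises, against 17.8%. In the others the readings of the 2 times overlap, and the call rests on the difference within each pair. The probe sets were called on these same arrays, so like direction in both pairs and separate groups are favoured by the selection. They are no independent support for the calls.

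The number of calls depended on the replicate block and on single arrays. Without the block, 14 probe sets (0.316%) were lower and 1 (0.0226%) was higher, all 15 of them among the 154. They belong to Ass1, Acsl1, Crem, Gchfr, Dgat1, Plat, Emd, Cenpi, Dgcr6, Mvk, Cyp1b1 and LOC102547700 for the falls and to Dbp for the rise. Leaving out 8 h replicate 1 left 29 falls and 3 rises, and leaving out 24 h replicate 1 left 44 and 5. Without 8 h replicate 2 there were 64 and 35, and without 24 h replicate 2 there were 156 and 70. In every one of the 8 fits that left out 1 FSH array, 25 falls and 2 rises of the 154 were called. Those falls belong to 20 genes: Acsl1, Asns, Ass1, Cbr1, Cd24, Crem, Cspg5, Cyp1b1, Dgat1, Dgcr6, Emd, Ezr, Fdx1, Gchfr, Hagh, LOC102547700, Mapkapk2, Mvk, Plat and Ptp4a1. The rises belong to Dbp and Tyro3. Every other called probe set lost its call in at least 1 of those fits.

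**Figure D1:**
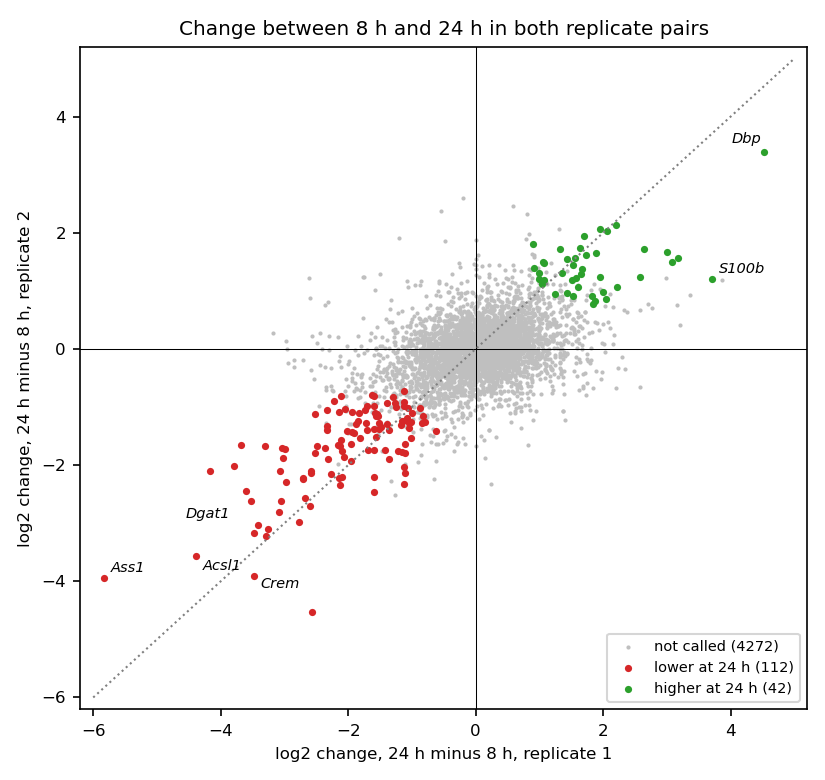
Change in log2 level from 8 h to 24 h of FSH in replicate 1 (x axis) and replicate 2 (y axis), 1 point per probe set tested, with the 112 lower and 42 higher probe sets coloured and the line of equal change dotted. The coloured points lie in the lower left and upper right corners, and the correlation of the 2 changes across all 4426 probe sets was 0.494 (probe sets are not independent replicates).

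Set beside the untreated cultures, most of the falls led back toward the 0 h level. Of the 112 probe sets, 110 had a higher mean at 8 h of FSH than at 0 h. The median difference was 1.87 log2 units over the 112, against -0.01 over all tested. At 24 h the median signed difference from 0 h was 0.17, against 0.03 over all tested. Differences above and below 0 h offset each other in that median, so it is not a typical distance. The 24 h mean lay within 1 log2 unit of the 0 h mean for 92 of the 112. That is a smaller share than the 4167 of all 4426 tested. The other 20 split in both directions. Above the 0 h mean by more than 1 unit stood 14 probe sets, of Plat, Dgcr6, Cd24, Fdx1, Asns, Star, Lox, Got1, Gucy1b1, Inha, Ckb and Slc25a30. Below it by more than 1 unit stood 6, of Gabrd, Lcn2, A2m, Reg3g and Id3. Of the FSH times up to 8 h, the highest mean was at 8 h for 75 of the falls, at 4 h for 31 and at 2 h for 6. A probe set called for a high level at 8 h is favoured to have its highest mean there, so these counts are no time course.

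The rises mirrored this at a smaller size. Of the 42 probe sets, 40 had a lower mean at 8 h than at 0 h, with a median of -1.07 over the 42, and at 24 h the median stood at 0.56 above 0 h. The 24 h mean was within 1 log2 unit of the 0 h mean for 35, again a smaller share than the 4167 of all 4426 tested. The other 7 lay above it and belong to Mpst, Rasl11b, Phgdh, Cyb5a, Tyro3, Fam229a and S100b. The lowest mean of the FSH times up to 8 h was at 8 h for 35, at 4 h for 5 and at 2 h for 2, where the selection likewise favours 8 h. For the falls and the rises, the share over all tested probe sets was not taken for these counts. Nor was it taken for the counts of 8 h means above or below 0 h. These differences from 0 h carry no test here. The direction of each 8 h level against 0 h was not used to choose the genes, but an extreme 8 h value on an array enters both differences. A falling probe set could also pass the filter on dim probe sets through its 4 h and 8 h arrays alone, as Ass1 did.

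**Figure D2:**
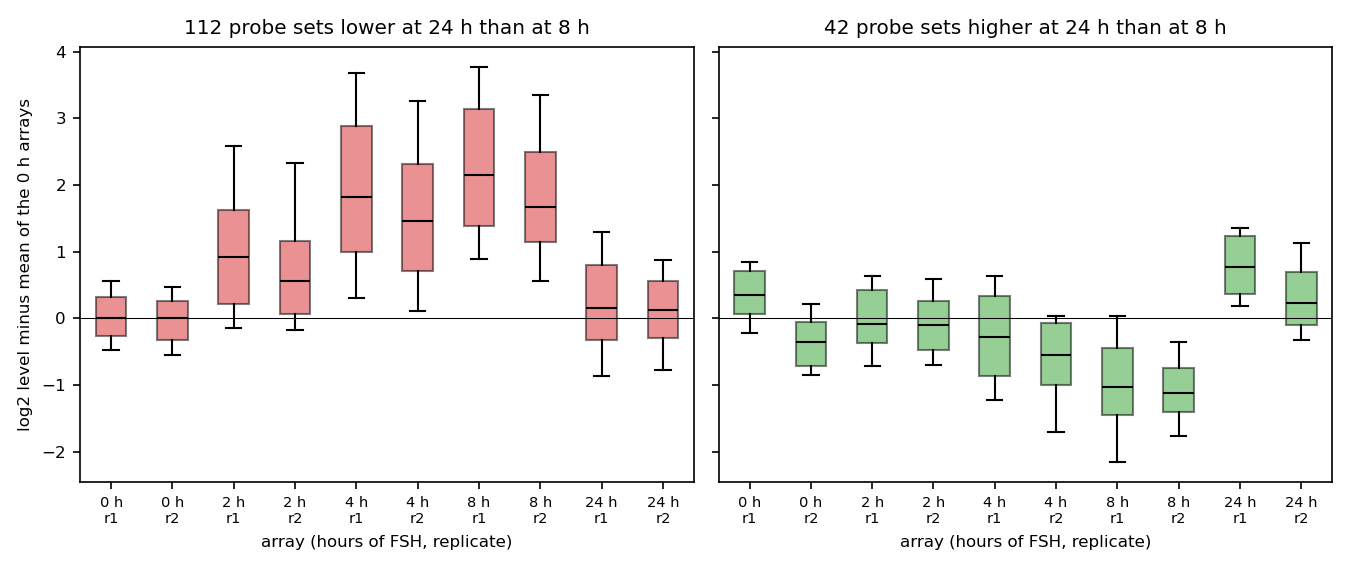
Log2 level minus the mean of the 0 h arrays on each of the 10 arrays, for the 112 probe sets lower at 24 h than at 8 h (left) and the 42 higher (right). The line in a box is the median, the box spans the quartiles, and the whiskers reach the outermost probe sets within the 10th and 90th percentiles. The left medians stand at 2.16 and 1.68 on the 8 h arrays and at 0.16 and 0.12 on the 24 h arrays, and the right medians at -1.03 and -1.12, then 0.77 and 0.23.

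Among the transcription factors that cAMP is known to induce, Crem fell most. It encodes both activators and the cAMP-inducible repressor ICER. Its probe set with the smallest p read 401 and 388 at 8 h and 36.2 and 25.8 at 24 h, against 25.1 and 10.3 at 0 h. Both 24 h arrays lay far below both 8 h arrays, and the log2 change was -3.69 ± 0.25 (limma SE, n = 2 arrays per time, adjusted p = 0.000125). Its other 2 probe sets fell by 3.55 and 2.37, and as several share sequence they are not independent. The array does not tell ICER from the longer Crem transcripts by name.

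The orphan nuclear receptor Nr4a3 went from 77.2 and 59.7 to 35.7 and 8.70, the last value being under the floor of 13.6 at which values were held before log2. The groups do not overlap, and the change was -1.62 ± 0.30 (adjusted p = 0.0177, 0.447 without the block). A second Nr4a3 probe set changed by -0.71 and was not called. Nr4a1 (-0.06 and 0.02 in its 2 probe sets) and Nr4a2 (-0.54 and 0.25) were not called. Without the first 24 h array, the first of these Nr4a2 changes was 0.40. Of 25 tested genes of immediate early and cAMP-induced factors, 2 fell (Crem and Nr4a3) and none rose, against 2.87% and 1.25% of all tested genes. The list's median over its 50 probe sets was -0.27, against 0.03 over all tested. In the cAMP pathway and its feedback, with 21 genes tested, Crem alone was called, and the median was -0.02.

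Id2 and Id3 are inhibitors of basic helix-loop-helix factors. Id2 went from 167 and 135 to 45.6 and 54.9, a change of -1.58 ± 0.35 (adjusted p = 0.0375). One probe set of Id3 went from 42.7 and 34.8 to 15.2 and 6.38 (-1.42), while the other changed by -0.27 and was not called. With Inha these made 3 of 18 tested genes of Id, TGF-beta and activin signalling that fell, with none rising and a list median of 0.14. The share of all tested genes that fell was 2.87%. The phosphatase Ptp4a1, known from growth-stimulated cells, was bright at 8 h (2022 and 1635) and stood at 339 and 374 at 24 h, a fall of 2.35 ± 0.27 (adjusted p = 0.00154). Ptp4a1 was listed with MAP kinase and EGF receptor brakes, though a role as such a brake was not tested. No other of the 9 tested genes in that list was called. Nfkb1, the p105 and p50 subunit of NF-kB, went from 574 and 261 to 175 and 107 (-1.50), and was the only call among 18 tested inflammatory genes.

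**Figure D3:**
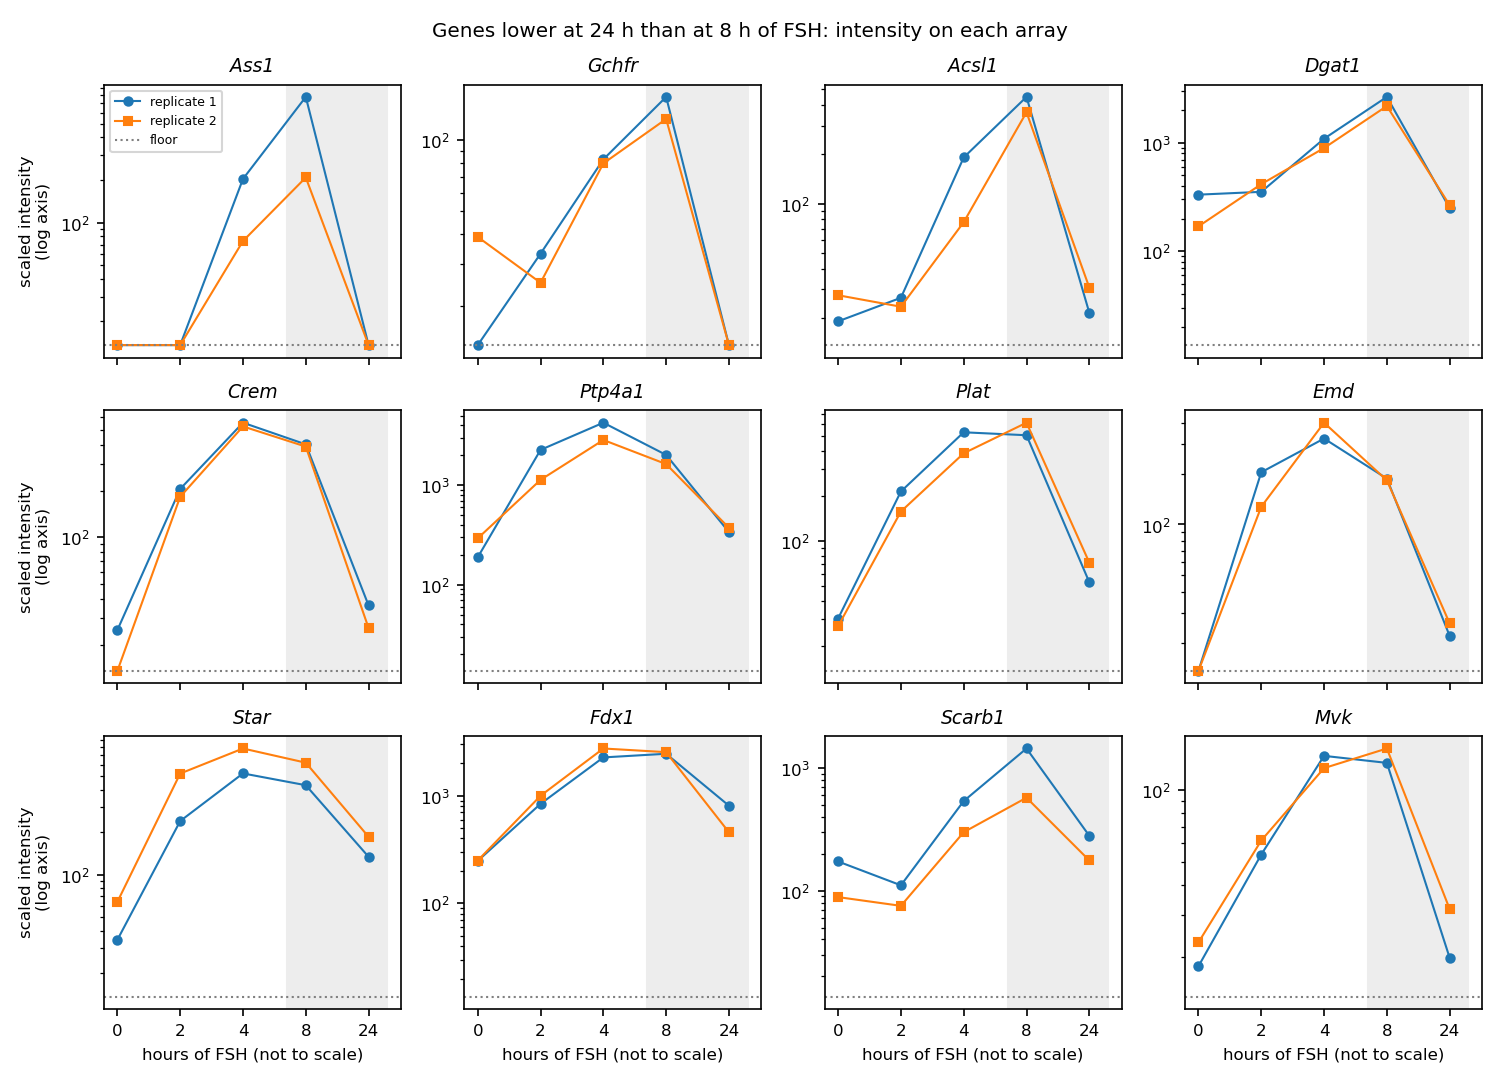
Scaled intensity (log axis) on each array against hours of FSH (not to scale) for 12 genes that were lower at 24 h than at 8 h, with the probe set of smallest p for each, replicate 1 in blue and replicate 2 in orange. The shading marks 8 h and 24 h, the dotted line is the floor of 13.6, and lower values are drawn on it. Each gene drops from 8 h to 24 h in both replicates, with Ass1 and Gchfr reaching the floor at 24 h.

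Promoter sequence was read for the called genes because they include known cAMP targets. RefSeq promoters (build GRCr8, 250 bases before the annotated start) were matched by symbol for 64 of the 78 genes lower at 24 h, 28 of the 34 higher and 2265 of the 2721 tested. The letters TGACG, the half-site of the cAMP response element, were found on either strand in 22 of the 64 (34.4%), in 6 of the 28 (21.4%), in 29.8% of the promoters of tested genes and in 18.2% of all 33469 promoters. The share among falling genes is close to that of the tested genes. The full element TGACGTCA, which contains the half-site, was present in 2 of the 64 (LOC102547700 and Txnl1), in 0 of the 28 and in 2.74% of tested genes. The E-box CACGTG, known from clock genes, was present in 4 of the 64, in 4 of the 28 (Aqp8, Igf2r, Mpst and Ralb) and in 9.27% of tested genes. The letters TTATGTAA and TTACGTAA (D-boxes) and AAAGGTCA (an Nr4a-type site) were found in none of the 64 or the 28, which says only that they are not in these windows.

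The windows of 4 falling genes that hold the half-site are given 5′ to 3′ on the gene's strand, with the half-site, on either strand, in capitals. They lie at chrX:157190188-157190437 (plus strand) for Emd, chr9:40718177-40718426 (minus) for Ptp4a1, chr9:84442859-84443108 (plus) for Inha and chr17:58933816-58934065 (plus) for Crem. Emd holds 4 matches, Ptp4a1 and Crem 2 each, and Inha 1, in the order CGTCA on the printed strand. The Crem window is that of the annotated gene start, and ICER is known to start from a separate promoter inside the gene. A match is a string of letters and not a measured binding site.

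Emd: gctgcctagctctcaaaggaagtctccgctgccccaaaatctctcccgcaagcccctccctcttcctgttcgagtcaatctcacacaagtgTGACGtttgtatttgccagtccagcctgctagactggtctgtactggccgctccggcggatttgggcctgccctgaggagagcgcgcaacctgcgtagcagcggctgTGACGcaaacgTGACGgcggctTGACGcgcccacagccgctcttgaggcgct
Ptp4a1: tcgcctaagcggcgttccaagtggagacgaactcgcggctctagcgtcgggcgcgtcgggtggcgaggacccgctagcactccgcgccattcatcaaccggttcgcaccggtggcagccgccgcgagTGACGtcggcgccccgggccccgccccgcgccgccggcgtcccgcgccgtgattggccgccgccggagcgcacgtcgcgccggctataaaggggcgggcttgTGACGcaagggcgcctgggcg
Inha: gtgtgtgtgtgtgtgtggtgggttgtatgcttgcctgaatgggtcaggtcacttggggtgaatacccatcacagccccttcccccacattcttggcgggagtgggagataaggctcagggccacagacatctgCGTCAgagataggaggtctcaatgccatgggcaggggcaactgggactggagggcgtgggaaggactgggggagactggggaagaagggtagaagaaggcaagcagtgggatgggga
Crem: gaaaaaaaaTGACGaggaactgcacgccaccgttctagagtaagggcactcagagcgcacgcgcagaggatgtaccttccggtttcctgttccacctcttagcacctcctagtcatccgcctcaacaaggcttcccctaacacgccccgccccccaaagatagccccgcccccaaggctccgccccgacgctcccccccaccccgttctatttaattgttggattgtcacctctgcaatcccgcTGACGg

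The largest fall was that of Ass1, argininosuccinate synthase, which makes the precursor of arginine and so feeds nitric oxide synthesis. It read 774 and 208 at 8 h. At 24 h it read 3.34 and 2.61, under the floor on both arrays, and at 0 h 2.08 and 8.98. The change against the floor was -4.88 ± 0.48 (adjusted p = 0.000717), so that Ass1 was at least 29.5-fold lower. Gchfr, the feedback inhibitor of GTP cyclohydrolase in tetrahydrobiopterin synthesis, read 152 and 123 at 8 h and 4.23 and 11.5 at 24 h, at least 10.03-fold lower (-3.33 ± 0.33, adjusted p = 0.000717). Both genes were dark at 24 h and clearly lit at 8 h on both arrays.

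Asns, asparagine synthetase, went from 1522 and 575 to 355 and 169, a change of -1.93 ± 0.24 (adjusted p = 0.00193). Its replicates lie far apart but both pairs fell by a similar size (-2.10 and -1.76), and without the block it was not called (0.537). Gucy1b1, a subunit of the nitric oxide receptor guanylate cyclase, went from 457 and 316 to 213 and 102 (-1.37 ± 0.31, adjusted p = 0.0427). The list of arginine, nitric oxide and tetrahydrobiopterin genes also held Asns, which its name does not cover. In it these 4 fell of 18 tested and none rose, while 2.87% of all tested genes fell. The median of the list's 28 probe sets was 0.04. Gls2, a glutaminase, fell by 2.36 on the log2 scale, from 109 and 67.5 to 9.35 and 20.4. Got1 and Mdh1, aspartate aminotransferase and malate dehydrogenase of the cytosol, fell by 1.47 and 1.02 and were picked out after their values were seen.

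Fatty acid genes moved in both directions. Acsl1, which activates long-chain fatty acids to their coenzyme A esters, went from 450 and 362 to 21.5 and 30.7 and so back to its 0 h readings of 19.0 and 27.5. The change was -3.97 ± 0.39 (adjusted p = 0.000717), and a second probe set fell by 3.13. Another Acsl1 probe set changed by -3.07 against the floor. It was under the floor on both 24 h arrays and so at least 8.39-fold lower. Dgat1, which makes the last step of triglyceride synthesis, was among the brightest of the falling genes at 2647 and 2181 and stood at 250 and 266 at 24 h (-3.22 ± 0.24, adjusted p = 0.00015). In these probe sets of both genes the 24 h readings lay near those of 0 h. The 8 h replicates of the other 2 Acsl1 probe sets lay further apart, at 334 and 97.5 and at 157 and 83.5. Fasn, fatty acid synthase, rose from 113 and 122 to 343 and 256, a change of 1.33 ± 0.26 (adjusted p = 0.0213). Its second probe set changed by 0.93 (adjusted p = 0.0891) and was not called. Of 32 genes tested for fatty acid activation, storage and oxidation, 2 fell and 1 rose, against 2.87% and 1.25% of all tested genes. The median of the list was 0.20.

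Steroidogenic genes made up the list with the lowest median, -0.69 over 16 probe sets. Of its 7 tested genes, 3 fell and 1 rose, against 2.87% and 1.25% of all tested genes. The list was chosen with earlier results of these data known. The list has 16 genes on the array, and the others were under the filter on dim probe sets. Among these were Cyp11a1, Cyp17a1, Cyp19a1, Cyp21a1, Hsd17b1, Hsd17b2, Hsd17b3 and Nr5a1, so the median does not cover those genes. Scarb1, the receptor that takes up cholesterol from high-density lipoprotein, went from 1452 and 575 to 281 and 177 (-2.04 ± 0.27, adjusted p = 0.00257). Its other 2 probe sets changed by -1.68 and -1.23 and were not called. Fdx1, the ferredoxin that passes electrons to mitochondrial P450 enzymes, went from 2444 and 2530 to 806 and 457 (-2.04 ± 0.28, adjusted p = 0.00345), and a second probe set fell by 1.45. Star, which carries cholesterol into the mitochondrion, went from 430 and 620 to 134 and 185 (-1.72 ± 0.26, adjusted p = 0.00536), and its second probe set fell by 1.34. Star and 1 probe set of Fdx1 stayed more than 1 log2 unit above 0 h, where Star read 34.5 and 64.1. None of the 5 probe sets was called without the block.

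Nr0b1 (DAX1), a nuclear receptor known to repress steroidogenic genes, rose from 188 and 85.1 to 447 and 165. Its replicates lie so far apart that the times overlap, and the call rests on the pairs, which rose by 1.25 and 0.95 (log2 change 1.10 ± 0.26, adjusted p = 0.0458). The outer mitochondrial cholesterol-binding protein Tspo changed by 0.98 (adjusted p = 0.0616) and was not called. Cyp1b1, a P450 that hydroxylates oestradiol, was picked out after its values were seen: it went from 483 and 463 to 111 and 91.2 (-2.23 ± 0.24, adjusted p = 0.00117), 2 further probe sets fell by 2.15 and 1.83, and the fourth changed by -1.22 and was not called.

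In cholesterol synthesis 1 gene of 16 tested was called. Mvk, mevalonate kinase, went from 130 and 149 to 19.8 and 31.7 (-2.47 ± 0.30, adjusted p = 0.0018), and its second probe set from 240 and 233 to 61.6 and 61.5. Other enzymes of the same pathway were not called and had changes of either sign, with Sqle at 1.18, Msmo1 at 1.07 and 0.81, Lss at -0.63 and Dhcr7 at -0.47. The median over the list's 30 probe sets was 0.06.

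Of secreted Sertoli cell products, Plat fell most. Tissue plasminogen activator, the protease it encodes, is a classical FSH-induced product of these cells. It read 506 and 614 at 8 h and 53.1 and 71.7 at 24 h, against 30.4 and 27 at 0 h (-3.18 ± 0.30, adjusted p = 0.000699). The inhibin alpha subunit Inha went from 1818 and 776 to 756 and 409 (-1.10 ± 0.23, adjusted p = 0.0313), and its second probe set changed by -0.94 (adjusted p = 0.0522). On each array Inha at 24 h lay above its 0 h reading of the same replicate number (367 and 169). The copper carrier ceruloplasmin (Cp) fell by 1.34 in 1 probe set, from 81.2 and 64.8 to 30.9 and 26.5, and changed by -0.28 in the other. Aqp8, a water channel, rose from 50.7 and 119 to 107 and 331 (1.28), with overlapping groups. Together 3 of 22 tested Sertoli cell products and identity genes fell and 1 rose, against 2.87% and 1.25% of all tested genes. The list median was -0.20.

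Among proteases and their inhibitors 2 of 26 tested genes fell, against 2.87% of all tested genes. They were Plat and A2m, the broad protease inhibitor alpha-2-macroglobulin. A2m read 145 and 97.5 at 8 h, 40.2 and 41.2 at 24 h and 149 and 124 at 0 h in the probe set with the largest change (-1.55 ± 0.30, adjusted p = 0.0221), so it ended below its untreated level. Of its other 4 probe sets, 2 fell and 2 were not called, with changes of -0.98 and -0.66. The matrix cross-linking enzyme Lox went from 166 and 115 to 47.2 and 39.6 (-1.67) and was the call among 22 matrix genes, whose median was 0.32. Another Lox probe set was also called (-1.62), and a further one changed by -1.48 and was not called.

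Genes of cell shape and surface fell in small number. Ezr, ezrin, which ties the actin cortex to the membrane, went from 864 and 659 to 174 and 178 (-2.10 ± 0.25, adjusted p = 0.00166). Tpm4, an actin-binding tropomyosin, went from 1203 and 546 to 408 and 244 (-1.36), while its other probe set changed by -0.67 and was not called. These 2 fell of 25 actin genes tested, against 2.87% of all tested genes, and the list median was 0.11. Cd24, a glycosylated surface protein, went from 307 and 215 to 31.4 and 23.2 (-3.25 ± 0.44, adjusted p = 0.00305) and fell in all 3 probe sets. It was the call among 12 junction and adhesion genes, where the gap junction protein Gja1 changed by -1.22 and was not called (adjusted p = 0.0929). Emd, emerin of the inner nuclear membrane, whose promoter is printed above, went from 187 and 182 to 21.9 and 26.0 (-2.95 ± 0.30, adjusted p = 0.000762).

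The remaining largest falls are of varied function and lay between -2.49 and -3.03. Cenpi, a kinetochore protein that was cloned from Sertoli cells as an FSH response gene, went from 134 and 106 to 16 and 17.4 (-2.84, adjusted p = 0.00273). Dgcr6, of poorly known function, went from 467 and 648 to 77.4 and 99.6 (-2.65, adjusted p = 0.00064). Hagh, which completes the glyoxalase detoxification of methylglyoxal, went from 713 and 633 to 90.6 and 129 (-2.63, adjusted p = 0.00239). The others were LOC102547700, the neurofilament gene Nefh, Madd, the chondroitin sulfate proteoglycan Cspg5, the secreted protein Crispld2 and Camk2n2, an inhibitor of calmodulin kinase II. Camk2n2 was under the floor on both 24 h arrays and so at least 5.60-fold lower. Bcl2l11 (BIM), which promotes apoptosis and was picked out after its values were seen, was likewise at least 3.72-fold lower in 1 probe set. Its other 2 probe sets were not called.

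Single genes fell in 3 further lists. Pcna, the sliding clamp of DNA replication, went from 626 and 499 to 218 and 206 (-1.40) in 1 probe set and was the call among 27 cell cycle genes. The other Pcna probe set changed by -1.20 (adjusted p = 0.078). Creatine kinase B (Ckb) was the call among 22 genes of glucose and energy use, at 1065 and 645, then 591 and 266 (-1.06, adjusted p = 0.0497). The other Ckb probe set changed by -1.44 and was not called. Atp5f1d, a subunit of ATP synthase, fell by 1.03 in 1 probe set, as 1 of 52 oxidative phosphorylation genes. Its other probe set changed by -0.82 and was not called. Txnip, a brake on glucose uptake, changed by 0.34 and 0.16 in its 2 probe sets and was not called. The glycolytic genes Pgk1, Aldoa and Pgam1 had changes between -0.03 and 0.34 and were not called.

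Among the rises, Dbp was the largest. It encodes a clock-controlled transcription factor that binds D-boxes. On the 8 h arrays it read 8.03 and 9.79, under the floor on both, and at 24 h 313 and 143, so it was at least 15.5-fold higher (3.96 ± 0.44, adjusted p = 0.00143). At 0 h it read 270 and 52.4, and the 24 h arrays thus lie in or near the untreated range. Its second probe set rose by 2.34. Nr1d1 (REV-ERB alpha), a repressor within the clock, went from 26.6 and 22.5 to 103 and 94.4 (2.01 ± 0.34, adjusted p = 0.0122), against 173 and 81.1 at 0 h. Its second probe set changed by 0.98 (adjusted p = 0.0762). Bmal1, an activator of both genes in the clock, had the opposite sign at -1.54 and -1.52 and was not called (adjusted p = 0.0942 and 0.144). Of 7 tested clock genes, 2 rose and none fell, against 1.25% and 2.87% of all tested genes. The list median was 0.14.

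**Figure D4:**
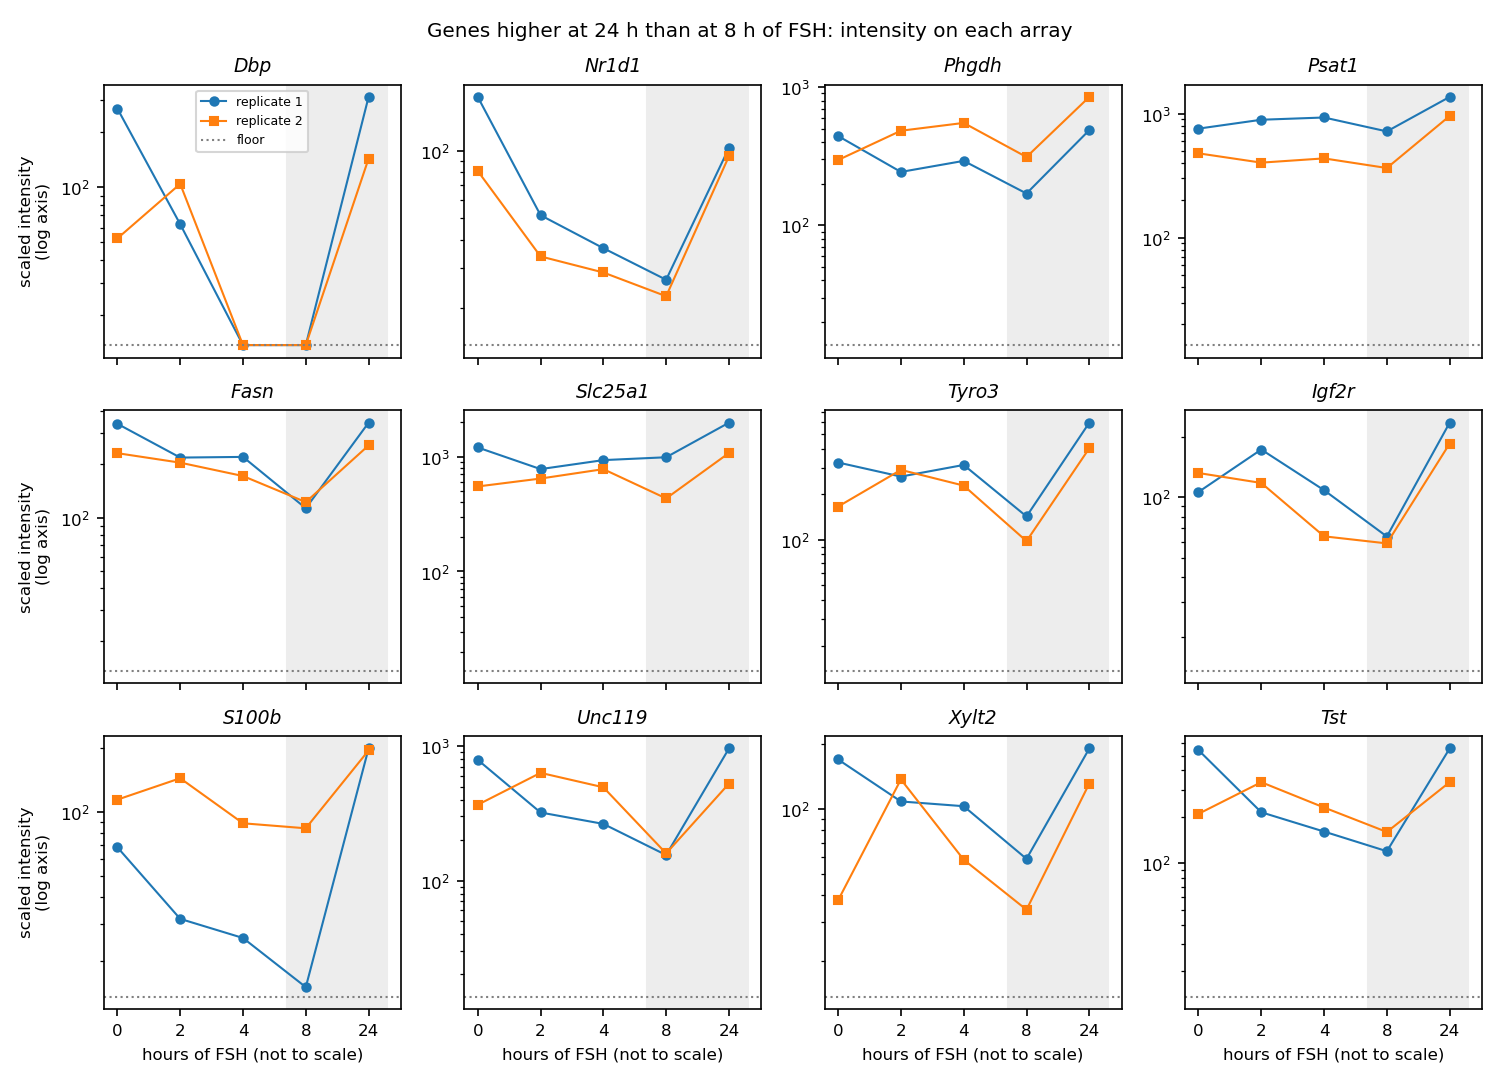
Scaled intensity (log axis) on each array against hours of FSH (not to scale) for 12 genes that were higher at 24 h than at 8 h, drawn as in the plot of falling genes. Psat1 and Slc25a1 were added after their values were seen. Dbp lies on the floor at 4 h and 8 h and reads 313 and 143 at 24 h, and S100b differs between its replicates at 8 h (15.1 and 83.8).

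Phgdh and Psat1, which act in consecutive steps of serine synthesis, both rose, though no list of that pathway was set up. Phgdh, which starts the pathway from 3-phosphoglycerate, went from 170 and 312 to 489 and 850 (1.48 ± 0.23, adjusted p = 0.00672). Its other 2 probe sets rose by 1.52 and 1.14. Psat1, the next enzyme, was picked out after its values were seen and went from 719 and 364 to 1363 and 957 (1.16 ± 0.24, adjusted p = 0.0298). A second Psat1 probe set rose by 1.47 and the last changed by 0.93 and was not called. Slc25a1, which exports citrate from mitochondria, was picked out likewise and went from 988 and 433 to 1977 and 1077 (1.16, adjusted p = 0.0493). None of these was called without the block.

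Tyro3, a receptor kinase of the family that recognises apoptotic cells, went from 143 and 98.0 to 593 and 402 (2.05 ± 0.27, adjusted p = 0.00257). A second Tyro3 probe set changed by -0.14 and was not called, so the 2 probe sets disagree. Igf2r, the receptor for mannose 6-phosphate and IGF2, went from 63.7 and 58.8 to 235 and 185 (1.77 ± 0.27, adjusted p = 0.00608). Sirpa rose by 1.91 in 1 of 3 probe sets, the others changing by 0.72 and 0.09. The chemokine Cx3cl1 rose by 1.49 in 1 of 3, the others changing by 1.05 and 0.62. Slc29a1, a nucleoside transporter, went from 88.0 and 122 to 280 and 317 (1.52), and Slc37a4, which moves glucose 6-phosphate into the endoplasmic reticulum, from 44.7 and 49.1 to 132 and 145 (1.56). A second Slc37a4 probe set changed by 0.72 and was not called.

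The other large rises ranged from 1.45 to 2.46. S100b, a calcium-binding protein, went from 15.1 and 83.8 to 198 and 194, by 3.71 in pair 1 and 1.21 in pair 2 (2.46 ± 0.51, adjusted p = 0.0275). Unc119, which binds the lipid tails of proteins, went from 155 and 159 to 964 and 527 (2.18). Xylt2, which starts the sugar chains of proteoglycans, went from 59.0 and 34.4 to 191 and 132 (1.82). Tst, a mitochondrial sulfurtransferase, went from 120 and 160 to 555 and 336 (1.64). The interferon-induced Mx2 went from 68.8 and 11.9 to 318 and 59.9 (2.17), and Cyb5a, cytochrome b5, from 97.5 and 8.09 to 304 and 45.3 (1.69). A second Cyb5a probe set changed by 0.88 and was not called. In the called probe sets of Mx2 and Cyb5a the times overlap and the replicates differ more than the times. Schip1, Fam229a, Hip1 and Fam219b rose by 2.38, 2.29, 1.68 and 1.59. Gstt2, a glutathione transferase, rose by 1.45 in 1 of its 2 probe sets and was the call among 32 antioxidant genes.

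No gene was called among 28 chaperone and stress genes, 41 ribosomal protein genes or 35 proteasome genes. At an unadjusted p under 0.05 in limma's test, 4 of 58 chaperone probe sets were lower and 6 higher, 0 of 59 ribosomal were lower and 1 higher, and 2 of 58 proteasome were lower and 0 higher. Over all 4426 probe sets 400 were lower and 331 higher at that level. Without the block none of these 3 lists had a call.

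**Figure D5:**
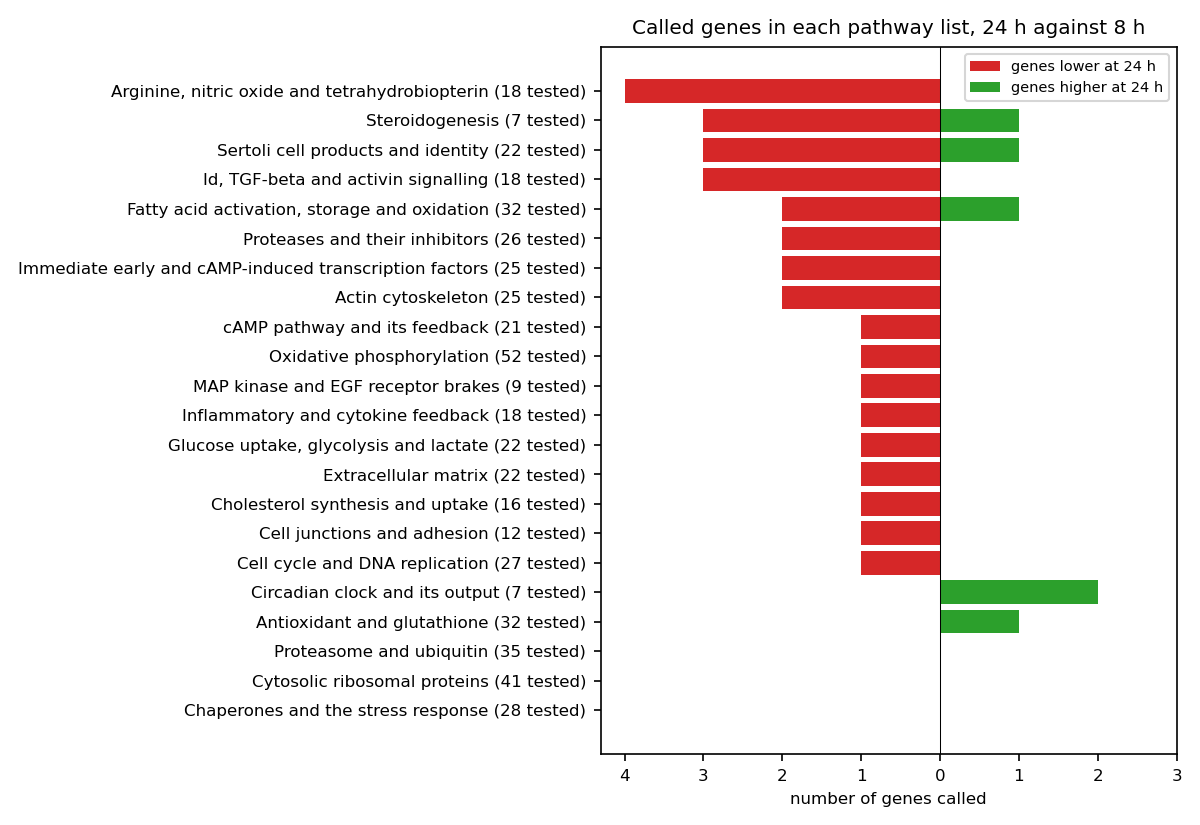
Number of genes called lower (left) and higher (right) at 24 h than at 8 h in each pathway list, with the genes tested in the list given beside its name. The longest bars are 4 genes of 18 for arginine, nitric oxide and tetrahydrobiopterin (Asns among the 4) and 3 each for steroidogenesis, Sertoli cell products and Id and TGF-beta signalling. The clock list has 2 higher and none lower. Over all tested genes 2.87% were lower and 1.25% higher.

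Markers of other testis cells were measured beside these changes. Of 10 tested peritubular myoid genes none was called, but 4 of their 20 probe sets were higher and none lower at an unadjusted p under 0.05 (limma), and the list's median was 0.76. The summed intensity of the 26 myoid probe sets was 2610 and 3128 at 8 h and 6862 and 3822 at 24 h, the first 24 h array standing highest. Smooth muscle actin, Acta2, read 462 and 357 at 8 h and 1380 and 325 at 24 h in its brightest probe set. The defining myoid genes Cnn1 and Des were under the filter on dim probe sets. Sums for germ cell markers were 9610 and 13485 at 8 h and 10383 and 14584 at 24 h, with none of 15 tested genes called and a median of -0.31. The germ cell genes Sycp1, Tnp1, Tnp2, Akap4, Odf1 and H1f6 were under the filter. The sum thus rests mainly on other members of the list and does not measure germ cell content. Leydig cell markers summed to 357 and 343, then 524 and 456, and their defining genes Cyp17a1 and Cyp11a1 were under the filter. Endothelial markers summed to 339 and 291, then 364 and 294, and macrophage markers to 450 and 388, then 424 and 349. None of the 2 Leydig, 3 endothelial or 2 macrophage genes tested was called. The part of these cells in the changes was not tested.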

How the data were processed

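Per the labels, total RNA of cultured Sertoli cells was hybridised to 10 arrays. The deposited values are linear intensities, 1 per probe set and array. How the authors made them is not given in the sources used here. Each array was scaled to a common 75th percentile of 109 and floored at 13.6 (that percentile divided by 8). Log2 was taken of the scaled and floored values. The 59 control probe sets were left out. Probe sets were kept where their mean over the 8 FSH arrays reached 31.7, the median of all values on those arrays.

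The 8 FSH arrays were fitted in R 4.3.3 with limma 3.58.1 (lmFit, then eBayes with its trend option), with 1 mean per time and the replicate number as a block, which leaves 3 residual degrees of freedom. P-values were adjusted by Benjamini-Hochberg over the 4426 probe sets, with calls made at 0.05. The pipeline was tested on simulated data. These held independent noise and the same kind of replicate effect that the fit assumes, so they could not test whether the block is valid. The number of arrays limits the precision. One 2 h array has no number in its label and was given number 1, the other being number 2. For each of the 6 pairs of FSH times, arrays of equal number deviated together from their time means (r = 0.474 to 0.706). Between 0 h and the FSH times r was 0.105 to 0.422. The labels do not say what arrays of equal number share, and whether they are paired cultures or were handled together was not tested.

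Gene names are those of the platform annotation, in which 7006 probe sets have a single symbol, 308 have more than 1 and 1426 have no symbol. RefSeq (GRCr8) holds the gene of 6985 of the 7006, and 21 had no match. Named were the 20 largest falls and the 20 largest rises among called genes that moved alike in both pairs, called members of the pathway lists, and a short set of FSH-related genes, of which Tf had no probe set with 1 symbol and was not analysed here. Called genes outside this rule that are described with their values are marked as picked after those were seen. The uncalled list members given for comparison (Tspo, Bmal1, Gja1, Sqle, Msmo1, Lss, Dhcr7, Pgk1, Aldoa, Pgam1 and Acta2) lie outside it too and were also picked after their values were seen. The members and lists were chosen with earlier results of these data known. Where both arrays of a time were under the floor, the fold uses the floor and is written "at least". Other alternatives tried were the arrays in the fit, scaling, floor, filter, variance trend and each array left out.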

Additional observations from a re-analysis of the deposited data

How the results depend on the processing

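All 154 called probe sets kept their direction in every alternative fit that tested them (139 were tested under the stricter filter). Fits that changed only the block, the filter, the variance trend or the arrays of other times gave the same log2 change by design. In those the direction could not move. The calls also moved alike in both pairs, which favours the same direction in the fits without an 8 h or 24 h array. The counts of calls moved far more. Without the replicate block 14 were lower and 1 higher. The 8 h and 24 h arrays alone gave 98 and 42 with the block and 0 and 0 without it, where 311 probe sets had an unadjusted p under 0.05 in limma. Adding the 0 h arrays gave 41 and 10 with the block and 10 and 0 without it. With no filter on dim probe sets 3 were lower and 3 higher of the 8740 then tested, and the prior degrees of freedom were 0.764 against 7.37. Without the intensity trend there were 79 and 23. Leaving out 1 FSH array at a time gave 29 to 156 lower and 3 to 70 higher. Other scaling, floor and filter settings, and the fit without the 2 h arrays, kept both counts within 1.5 times. Of single genes, Amh changed sign without 8 h replicate 1, its range over the left-out arrays being -0.59 to 0.088. Nr4a2 did so without 24 h replicate 1, with a range of -1.48 to 0.40. Neither was called in the full fit. The cause of these shifts was not tested. Levels near the floor of 13.6 are not resolved, which limits Ass1, Gchfr, Camk2n2, Phaf1 and 1 probe set each of Acsl1, Bcl2l11 and Dbp to bounds.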
